A study of Homo sapiens with 3 samples.

Results

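The array of HSC-3 cells that carried a short hairpin RNA (shRNA) against DKK3 was set against the array of HSC-3 cells that carried a scrambled shRNA. HSC-3 is an established cell line of human tongue squamous carcinoma. The comparison takes 2 of the 3 arrays of the series and covers 15106 of the 17552 genes with a named probe, those above the blank spots on the brighter of both arrays. The shDKK3 cells were transduced with lentivirus made in HEK293 cells from a GFP vector holding an shRNA against human DKK3, and the shScr cells with virus from the pGFP-C-shLenti vector holding a non-effective cassette. Both lines were kept in puromycin, in DMEM with fetal bovine serum, and the other array held parental cells without vector or puromycin. The labels do not say whether each line was 1 clone or a pool. Each condition was measured on 1 array, so no test was possible. Every difference below is one between arrays, and differences between conditions, cultures or RNA preparations cannot be told apart. Nor can fewer cells with a transcript be told apart from less of it per cell.

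DKK3 encodes a secreted glycoprotein of the dickkopf family. Other members of that family block canonical Wnt signalling by binding the coreceptors LRP5 and LRP6 and the Kremen receptors, whereas CKAP4 has been described as a receptor of DKK1 and DKK3. By its title, the study asked how silencing DKK3 bears on malignant properties of HSC-3. Oral squamous carcinoma cells keep much of the basal keratinocyte programme, with keratins, integrins and desmosomes, and can also express mesenchymal genes such as vimentin.

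The check of the targeted gene comes first. DKK3 had deposited levels of 309 (parental), 226 (shScr) and 170.2 (shDKK3), on the authors' linear intensity scale on which the median of each array is 25. It was lowest on the shDKK3 array, but the difference to shScr was 1.31-fold (log2 -0.39), at percentile 17.2 of all genes compared, and did not reach 2-fold. That value comes from 1 probe. It was -0.80 with scaling to the median, and 0.18, the opposite direction, with local background taken from a second deposited intensity column. Copies of 1 control spot varied within an array by an SD of 0.08 to 0.14 (log2), which puts the spot noise of a difference at 0.16. All 11 keratinocyte markers on the array lay above the blank spots on all 3 arrays, with summed deposited levels of 38046, 31931 and 93879 in the same order. Of them, 7 lay above 0 and 4 below, 2 (KRT14 and KRT17) were at least 2-fold higher, and their median log2 difference was 0.21. Sums of deposited levels do not give a fold, because that scale equates only the medians of the arrays. On it, the 60 cytosolic ribosomal proteins had a median difference of 0.93, against 0.09 after normalisation. Fibroblast markers were seen for 4, 3 and 5 of 10 genes, with summed levels of 151, 125 and 164, and leukocyte markers for 5, 5 and 4 of 7 genes, with summed levels of 152 to 301. Endothelial markers summed to 116 to 168, melanocyte and neural markers to 68.6 to 174 and muscle markers to 75.1 to 109.

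Of the 15106 genes, 451 (2.99%) had signal at least 2-fold higher on the shDKK3 array and 687 (4.55%) signal lower by 2-fold or more, after background correction and quantile normalisation, or 1138 (7.53%) in all. A size of 2-fold is a description here and not a statistical threshold. The robust SD of the differences was 0.30 (log2), against 0.16 between the shScr and parental arrays, where 59 genes (0.398%) were higher by 2-fold or more and 150 (1.01%) lower, of 14810 compared, 209 (1.41%) in all. The median of all genes was 0.03. In the authors' deposited values that median was 0.32, and 2192 of 14833 genes (14.8%) were at least 2-fold higher and 1604 (10.8%) lower. The 451 higher genes all passed 2-fold in those values too (3.04% of 14833), as did 586 of the 687 lower genes (3.95%), and 0 of the genes called had the opposite sign in them. This is no independent check, because the deposited values are a straight line of the same spot values. They lack the offset that compresses folds, and their all-gene median is higher. The 101 lower genes that missed 2-fold in the deposited values include bright genes such as B2M, PCNA and CCT8. With the second deposited intensity column subtracted as local background instead, 365 of 1137 called genes passed 2-fold on the same side and 188 had the opposite sign. Among 268 called members of the gene lists, 41 had the opposite sign, and those named are given with their value under local background. The second column followed the brightness of its own spots (r of 0.891 to 0.935). Its subtraction can therefore take signal away with background, and what it measures is not given in the sources used here. List counts below stand beside 2.99% higher and 4.55% lower of all genes, and 14.8% and 10.8% in the deposited values. A difference of 4-fold was reached by 12 higher and 20 lower genes. Called genes were bright: of the 451 higher genes, 0 lay among the dimmest when genes were split by signal into 3 equal groups, 60 in the middle and 391 among the brightest, and of the 687 lower genes 0, 128 and 559. Dim genes are compressed by the offset used in the correction.

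**Figure D1:**
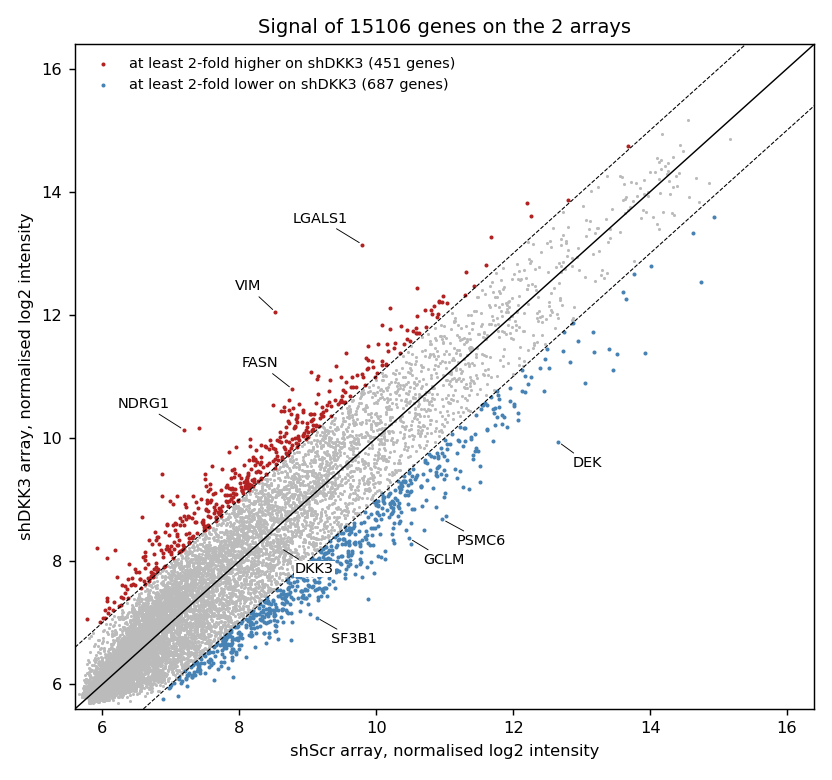
Normalised log2 intensity of the 15106 genes on the shScr array (x) and the shDKK3 array (y), 1 point per gene, 1 array per condition. The solid line marks equal signal and the dashed lines 2-fold, with 451 genes above and 687 below them. DKK3 lies between the dashed lines at a log2 difference of -0.39.

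The genes described first are the 14 higher and 14 lower ones with the largest difference in both sets of values, ranked by the smaller of their normalised and deposited differences. The 2 highest differences belonged to VIM and LGALS1, whose signal was lowest on the shScr array. VIM, which encodes the intermediate filament vimentin, had deposited levels of 5006, 212 and 3695 (parental, shScr, shDKK3). LGALS1, the beta-galactoside-binding lectin galectin-1, had 3174, 539 and 8876 in the same order. For VIM the parental and shDKK3 arrays were both high and the shScr array alone was low, and for LGALS1 all 3 arrays differed, with shScr lowest. The log2 difference of shDKK3 to shScr, given in parentheses after the levels from here on, was 3.52 for VIM (11.5-fold) and 3.35 for LGALS1 (10.2-fold). The difference of shScr to parental, a comparison that shares the shScr array, was -4.30 for VIM and -2.36 for LGALS1. Both genes were measured by 1 probe. What sets the shScr array apart at these genes was not tested.

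Further higher genes covered metabolism, the cytoskeleton and secreted factors. CHCHD10, a protein of the mitochondrial intermembrane space, had levels of 255, 43.3 and 359.6 (parental, shScr, shDKK3). CUTA, a small trimeric protein linked to the membrane anchoring of acetylcholinesterase, had 813, 314 and 1812. For both, the shScr array was lowest, and the differences between shDKK3 and shScr were 2.19 and 2.03 (log2). TUBB3, class III beta-tubulin, known from neurons and from drug-resistant carcinomas, had 119, 49.5 and 336 and a difference of 2.001 at its leading probe, whereas its second, dim probe gave 0.05. FGFBP1, the secreted carrier of fibroblast growth factors, had 460.4, 205 and 1183 and CCDC71, a coiled-coil protein, 96.5, 8.90 and 148. Here too the levels ran from shScr over parental to shDKK3. FGFBP1 had the opposite sign with local background (-1.26). Beside FASN and KREMEN2, which are described with their pathways, NDRG1, AQP3, SPRR1B, S100A8 and KRT6B completed the 14 higher genes, the latter 5 at differences from 2.14 to 2.94. Of these, SPRR1B, S100A8 and KRT6B were low on both controls, while NDRG1 and AQP3 had parental levels of 328 and 173 between those of shScr (63.3 and 78.7) and shDKK3 (863 and 882). With local background, AQP3 (0.75), KRT6B (0.37), SPRR1B (0.17), TUBB3 (0.15), FASN (0.13) and S100A8 (0.10) lay below 2-fold. VIM, LGALS1, NDRG1, CHCHD10, CUTA, KREMEN2 and CCDC71 stayed past 2-fold there (1.05 to 3.07).

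Among the 14 lower genes were genes of chromatin, splicing, protein turnover and glutathione synthesis. PSMC6, an ATPase of the 19S proteasome cap, had deposited levels of 773, 1188 and 256 (parental, shScr, shDKK3), a difference of -2.29 (log2). TRIM7, a RING-finger ubiquitin ligase that binds glycogenin, had 389, 1218 and 269 (-2.28), and GCLM, the modifier subunit of glutamate-cysteine ligase, 238, 869 and 196 (-2.11). For TRIM7 and GCLM the parental level lay close to that of shDKK3, and shScr alone was high. The histone gene H4C8, listed as HIST1H4H, showed this most plainly with 33.0, 254 and 36.4 (-2.04), although H4 genes encode 1 protein from near-identical copies and a probe may bind several.

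The remaining lower genes had their lowest level on the shDKK3 array and their highest on shScr. SF3B1, the core subunit of the U2 snRNP that recognises the branch point, had 173, 334 and 56.1 (parental, shScr, shDKK3). PNN, a desmosome- and speckle-associated splicing protein, had 695, 992 and 222, and HAT1, which acetylates newly made histone H4, 437, 610.5 and 121. In each, the shDKK3 array lay below both others, at -2.05, -2.19 and -2.16 (log2) against shScr. EEF1E1, a scaffold of the aminoacyl-tRNA synthetase complex, had 1213, 1686 and 436, and COPS2, a subunit of the COP9 signalosome, 417, 535 and 112. DNTTIP2, a nucleolar protein, had 526, 677 and 145, RANBP2, the SUMO ligase on the cytoplasmic side of the nuclear pore, 392, 567 and 130.2, and GPBP1, a GC-rich promoter binding protein, 428, 736 and 184. Their differences to shScr ranged from -2.23 to -1.96 (log2). DEK (-2.72) and KRR1 (-1.998) completed the set. COPS2 had the opposite sign with local background (0.46).

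**Figure D2:**
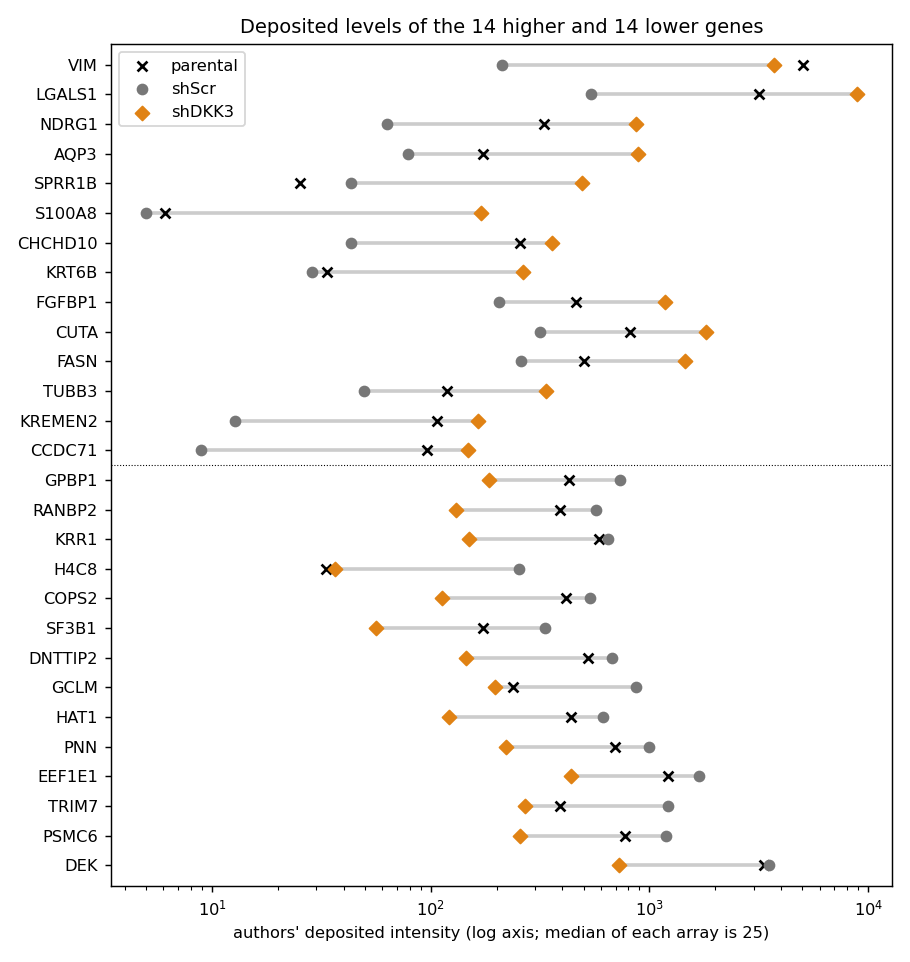
Authors' deposited intensity (log axis, median of each array 25) of the 14 higher and 14 lower genes described here, ordered by their normalised difference. Crosses are the parental, circles the shScr and diamonds the shDKK3 array, 1 array each, and grey bars join shScr and shDKK3. For VIM, KREMEN2 and CHCHD10 the parental cross lies near the shDKK3 diamond, and for DEK and KRR1 it lies near the shScr circle.

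Within the dickkopf family and its receptors, 10 genes were compared, and 2 were higher and 1 lower by 2-fold or more. KREMEN2, a receptor that removes LRP6 from the surface together with dickkopf ligands, had levels of 107, 12.7 and 164 (parental, shScr, shDKK3), a log2 difference of 1.996. CKAP4, the receptor named above, had 780.2, 246 and 965 and 1.56 at its leading probe, and 0.66 at its other. For both receptors the shScr array was the low one. DKK1 had 3240.0, 2748 and 1552, lowest on shDKK3 (-1.33), but short of 2-fold in the deposited values (-0.82). The list median was 0.195, beside 0.03 for all genes. Of 26 canonical Wnt targets and core components, 0 differed by 2-fold, and their median was 0.16.

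Basal and stress keratins had higher signal on the shDKK3 array, whereas simple epithelial keratins did not as a group. Of 8 basal and stress keratins, 6 were at least 2-fold higher (75%, against 2.99% of all genes) and 0 lower, with a median of 1.27 (log2). KRT14, KRT16 and KRT17 are closely related, as KRT6A, KRT6B and KRT6C are, and their probes may share signal. KRT6C had levels of 215, 481 and 1689 (parental, shScr, shDKK3), and KRT16 had 82.3, 95.1 and 537. KRT15 was higher at both of its probes (1.64 and 2.37). All 16 S100 genes compared lay above 0, with a median of 0.56, but 2 passed 2-fold (12.5%, against 2.99% of all genes). These were S100A8 and S100A9, the subunits of calprotectin. S100A9 had 28.6, 19.9 and 110.1, so it was high on the shDKK3 array alone (1.34). Relative to all genes, the S100 median was 0.53, and 0.099 with local background. The median of the basal and stress keratins was 1.25 and 1.22 in the same terms. Of 35 keratinocyte differentiation genes, 32 lay above 0 with a median of 0.32, while 1 was 2-fold higher (2.86%) and 1 lower. In the deposited values 15 of them were at least 2-fold higher, beside 14.8% of all genes. Of 4 simple epithelial keratins, 2 lay above 0 and 2 below, with a median of 0.05, and KRT19 alone was higher at 1187, 709 and 3089 (1.57). The 24 squamous lineage factors held 0 genes past 2-fold.

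Glycolysis enzymes had higher signal on the shDKK3 array. Of 21 genes compared, 19 lay above 0, 4 (19%) were higher by 2-fold or more (all genes 2.99%) and 0 lower, with a median of 0.604 (log2). Of these 21 genes, 16 were higher and 0 lower by 2-fold or more in the deposited values, where the shares of all genes are 14.8% and 10.8%. ALDOA, the main aldolase of most cells, had levels of 4703, 1873 and 9703 (parental, shScr, shDKK3). ENO2, the gamma enolase, had 102, 24.1 and 126, and ALDOC, the aldolase of brain, 24.8, 8.90 and 80.3. GPI, glucose-6-phosphate isomerase, had 290.3, 177 and 552. In each of the 4, shDKK3 was highest and shScr lowest, with differences of 1.59, 1.38, 1.33 and 1.28. Of 29 hypoxia targets, 5 were higher (17.2%) and 1 lower, while the list median was 0.07, close to that of all genes. The mitophagy receptor BNIP3 had 963, 410.5 and 1956 (1.75), and EGLN3, an oxygen-sensing prolyl hydroxylase, 70.3, 30.3 and 151 (1.46). STC2, stanniocalcin-2, was the lower one at 63.8, 118 and 38.9 (-1.06). The glycolysis list had a median of -0.29 for shScr against parental, and the part of the shScr array in the difference was not tested. Relative to all genes, the glycolysis median was 0.58, and 0.28 with local background, where ENO2 (-0.22), BNIP3 (-0.38) and STC2 (0.03) had the opposite sign.

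The core letters of the hypoxia response element, ACGTG, were searched on both strands in the 250 bases before the start of each gene, in RefSeq sequence of GRCh38.p14. They occurred in 8 of the 19 glycolysis promoters given (42.1%) and 12 of the 25 hypoxia target promoters (48%), beside 5101 of all 27305 promoters (18.7%). All 4 glycolysis genes past 2-fold held them, as did 2 of the 5 hypoxia targets past 2-fold in either direction with a promoter given. Those 5 include the lower STC2 and leave out NDRG1, which had no promoter given. The letters are a description and not a bound site, and they overlap the E-box CACGTG, which reads the same on both strands. The promoters of the hypoxia targets BNIP3 and DDIT4 and of ALDOA and ENO2 are shown because these are the members with the largest differences that hold the letters, given in capitals, 5′ to 3′ on the strand of the gene. They lie at chr10:131981924-131982173 (minus strand), chr10:72273674-72273923 (plus), chr16:30064029-30064278 (plus) and chr12:6914330-6914579 (plus).
BNIP3: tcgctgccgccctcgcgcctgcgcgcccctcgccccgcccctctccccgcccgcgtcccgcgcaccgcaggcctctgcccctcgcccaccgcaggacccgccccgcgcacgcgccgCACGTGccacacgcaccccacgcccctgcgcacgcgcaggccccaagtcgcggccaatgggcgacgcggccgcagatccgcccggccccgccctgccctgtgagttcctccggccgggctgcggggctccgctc
DDIT4: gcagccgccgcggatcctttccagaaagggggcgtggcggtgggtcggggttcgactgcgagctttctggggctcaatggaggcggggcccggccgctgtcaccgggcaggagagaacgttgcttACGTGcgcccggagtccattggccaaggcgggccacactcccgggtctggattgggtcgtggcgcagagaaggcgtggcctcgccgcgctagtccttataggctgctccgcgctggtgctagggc
ALDOA: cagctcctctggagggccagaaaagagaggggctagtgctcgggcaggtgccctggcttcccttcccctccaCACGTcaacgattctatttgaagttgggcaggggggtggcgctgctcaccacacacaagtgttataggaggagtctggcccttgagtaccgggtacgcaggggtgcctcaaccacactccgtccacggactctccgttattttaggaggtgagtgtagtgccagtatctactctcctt
ENO2: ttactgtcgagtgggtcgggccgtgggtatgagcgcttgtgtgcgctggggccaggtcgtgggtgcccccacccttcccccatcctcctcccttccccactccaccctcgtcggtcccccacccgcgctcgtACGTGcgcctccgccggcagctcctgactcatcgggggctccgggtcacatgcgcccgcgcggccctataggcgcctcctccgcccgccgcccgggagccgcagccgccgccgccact

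The sterol and fatty acid pathways also had members with higher signal. Of 22 cholesterol synthesis genes, 7 (31.8%) were higher by 2-fold or more and 1 lower, beside 2.99% and 4.55% of all genes, with a median of 0.56. Their median relative to all genes was 0.53, and 0.07 with local background. MVK, mevalonate kinase, had levels of 138, 92.9 and 428 (parental, shScr, shDKK3), and DHCR7, the last reductase of the pathway, 179, 146 and 543. SREBF2, the transcription factor that drives the pathway, had 114, 56.9 and 207 (1.35). In these 3 genes shDKK3 was highest and the controls lay lower, with shScr lowest. SC5D, sterol-C5-desaturase, was the 1 lower at 96.0, 150.2 and 49.1 (-1.14). Of 20 fatty acid genes, 3 were higher and 1 lower. FASN, fatty acid synthase, had 501.3, 259 and 1454 (2.02), and ACLY, which makes cytosolic acetyl-CoA from citrate, 281, 125 and 460.2 (1.47). FADS3, a desaturase, had 495, 151 and 430.3 (1.16), so parental exceeded shDKK3 there, while ELOVL5, an elongase, was lower at 352, 550.0 and 249 (-1.18). Under local background MVK (-0.08), SREBF2 (-0.203) and ELOVL5 (1.12) had the opposite sign. The sterol regulatory element, searched on both strands as the exact letters TCACNCCAC, was found in 1 of 19 cholesterol promoters and in 0 of 19 fatty acid promoters, beside 239 of 27305 (0.875%). Other forms of the element were not searched, so promoters without these letters may still hold one. The 1 promoter is that of SREBF2 at chr22:41832855-41833104 (plus strand), shown with the match in capitals.
SREBF2: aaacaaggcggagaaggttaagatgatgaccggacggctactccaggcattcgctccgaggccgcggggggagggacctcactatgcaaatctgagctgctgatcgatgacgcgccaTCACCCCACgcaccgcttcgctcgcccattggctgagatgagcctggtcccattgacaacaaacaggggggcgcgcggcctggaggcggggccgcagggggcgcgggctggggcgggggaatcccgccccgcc

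Respiratory chain subunits had higher signal, whereas subunits of the mitochondrial ribosome went both ways. Of 71 oxidative phosphorylation genes, 14 (19.7%) were at least 2-fold higher and 1 lower, with a median of 0.37. Of these 71 genes, 31 were higher and 1 lower by 2-fold or more in the deposited values. NDUFS7, an iron-sulfur subunit of complex I, had levels of 298, 165 and 600.4 (parental, shScr, shDKK3). NDUFB2, an accessory subunit, had 1111, 560.4 and 2166 and was higher at both of its probes (1.45 and 1.31), and NDUFA3 had 925, 599.7 and 2097. In these 3, shDKK3 was highest and shScr lowest. The lower member was SDHD, a membrane anchor of complex II, at 446, 450.3 and 230.5 (-1.001, and -0.97 in the deposited values). Of 64 mitochondrial ribosomal proteins, 3 were higher and 9 lower (14.1%, against 4.55% of all genes), while 34 lay above 0. Of these 64 genes, 14 were higher and 5 lower by 2-fold or more in the deposited values. Higher genes are also the more frequent among all genes there, and the list median lay 0.13 above that of all genes. MRPL1 had 381, 464 and 163 (-1.42) and MRPL13 763, 821 and 364 (-1.34), both lowest on shDKK3, whereas MRPL23 had 1229.6, 937 and 2889 (1.103). The oxidative phosphorylation genes are short, with a median genomic length of 10.6 kb. After removal of the trend with gene length their median was 0.26. Relative to all genes it was 0.34 before that removal, and 0.08 with local background, where NDUFA3 had the opposite sign (-0.22).

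Metallothioneins, small cysteine-rich proteins that bind zinc and copper, had higher signal in all 9 genes compared, and 5 were at least 2-fold higher (55.6%). The median was 1.06 (log2), and the same genes had a median of -1.18 for shScr against parental. MT1X had levels of 1040.5, 335 and 1657 (parental, shScr, shDKK3), and MT1H had 3739, 936 and 5047. For both, parental and shDKK3 were high and shScr alone was low. The MT1 genes are near-identical copies whose probes may share signal, so the 9 values are not independent. Their median relative to all genes was 1.04, and 0.38 with local background. Antioxidant genes under NRF2 split, with 4 higher and 5 lower of 34. Of these 34 genes, 11 were higher and 4 lower by 2-fold or more in the deposited values. SLC7A11, the cystine importer, had 52.0, 128 and 12.9 (-1.78) and the transcription factor NFE2L2, NRF2 itself, 653, 658 and 274 (-1.33). GCLM is described above, and TXNRD1, thioredoxin reductase, had 2443, 1451 and 875 (-1.14, and -0.73 in the deposited values). Against these, PRDX2, a peroxiredoxin, had 388, 271 and 1040.3 (1.53) and AKR1B10, an aldo-keto reductase, 9.42, 8 and 65.5 (1.18), with its other probe at 0.999. GPX2, a gastrointestinal glutathione peroxidase, had 27.3, 12.2 and 75 (1.17).

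HSP70, HSP40 and chaperonin genes had lower signal on the shDKK3 array, whereas HSP90, its cochaperones and small HSPs lay evenly about 0. Of 25 HSP70 and HSP40 genes, 9 (36%, against 4.55% of all genes) were at least 2-fold lower and 1 higher, with a median of -0.51. Their median relative to all genes was -0.54, and -0.02 with local background. HSPH1, the HSP110 nucleotide exchange factor, had levels of 3057, 5934 and 1864 (parental, shScr, shDKK3), and HSPA1A, the stress-inducible HSP70, 4811, 15019 and 5454. DNAJB4, an HSP40, had 95.2, 219.7 and 37.3. The shScr array was the highest in all 3, and the shDKK3 level of HSPA1A was close to parental. Their differences to shScr were -2.35, -2.21 and -1.84, and both HSPA1A probes gave about the same value (-2.21 and -2.23). HSPA1A and HSPA1B are near-identical, and their probes may share signal. HSPA1B was at -1.59, and at 0.07, the opposite sign, with local background. Of 18 genes of HSP90, its cochaperones and small HSPs, 2 (11.1%) were lower and 0 higher, with 9 above 0, 9 below and a median of -0.02. Of 16 chaperonin and prefoldin genes, 6 (37.5%) were lower and 0 higher, with a median of -0.696. CCT6A, a subunit of the TRiC ring that folds actin and tubulin, had 3038, 4393 and 1580.0 (-2.15), VBP1, a prefoldin subunit, 1145, 1419.5 and 411 (-2.06) and CCT8 1479, 1597 and 819.7 (-1.37). In these the shDKK3 array was lowest and shScr highest. Of these 16 genes, 2 were higher and 3 lower by 2-fold or more in the deposited values, and CCT8 missed 2-fold there (-0.96). It had the opposite sign with local background (0.22). Of 24 endoplasmic reticulum chaperone and unfolded protein response genes, 5 (20.8%) were lower and 0 higher. Among them DERL2, of the retrotranslocation machinery, had 752, 1139 and 535 (-1.37) and DNAJB11, a BiP cochaperone, 707, 709 and 320.5 (-1.27). The list median was -0.05.

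The heat shock element was searched on both strands as 3 exact, alternating GAA and TTC units with 2 free letters between units. This pattern occurred before the start in 3 of 24 HSP70 and HSP40 promoters (12.5%), beside 120 of 27305 (0.439%). It was found in 1 of 14 promoters of HSP90, its cochaperones and small HSPs, and in 0 of 14 chaperonin promoters. Units with a mismatch were not searched, so a promoter without the pattern may still hold an element. Of the 9 HSP70 and HSP40 genes past 2-fold in either direction with a promoter given, 0 held the exact pattern. Those 9 include the higher HSPA2 and leave out the lower HSPA14, which had no promoter given. CHORDC1, an HSP90 cochaperone with levels of 221, 373 and 83.9 (parental, shScr, shDKK3), a log2 difference of -1.83, held 3 overlapping matches. It had the opposite sign with local background (0.16). Its promoter is shown as the only such member of these lists past 2-fold, at chr11:90223050-90223299 (minus strand), with the matches in capitals.
CHORDC1: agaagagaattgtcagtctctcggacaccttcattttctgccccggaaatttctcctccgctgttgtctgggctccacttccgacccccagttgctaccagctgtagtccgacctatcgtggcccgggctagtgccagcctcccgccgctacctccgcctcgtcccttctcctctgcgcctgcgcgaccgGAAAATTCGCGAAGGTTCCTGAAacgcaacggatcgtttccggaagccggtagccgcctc

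Genes that handle RNA and proteins in the nucleus had lower signal on the shDKK3 array. Of 36 splicing factors, 11 (30.6%) were at least 2-fold lower and 1 higher, with a median of -0.63, and 29 lay below 0. Of these 36 genes, 2 were higher and 7 lower by 2-fold or more in the deposited values. Beside SF3B1, the serine-arginine protein SRSF5, listed as SFRS5, had levels of 2200.0, 1802 and 867 (parental, shScr, shDKK3), and HNRNPU, a nuclear matrix RNA-binding protein, 2621, 2376 and 1190.2. In both, shDKK3 lay below controls that were close to each other, and HNRNPU was at -0.997 in the deposited values. HNRNPL, which binds CA repeats, was the higher one at 203, 160.2 and 422 (1.07). Of 35 nuclear pore and transport genes, 6 (17.1%) were lower and 0 higher. TNPO1, the importer transportin-1, had 975, 965 and 413 (-1.44), and XPO1, the main exporter of proteins, 403, 381 and 166 (-1.12). Of 20 genes of DEK, SET, HMG and SMC chromatin proteins, 6 (30%) were lower and 1 higher. SMC4, a condensin subunit, had 1226, 1091 and 401 (-1.65), SMC3, of cohesin, 106, 124 and 27.9 (-1.35) and SMARCA5, the ISWI ATPase, 129, 166 and 46.7 (-1.30). The higher one was HMGA1, an architectural AT-hook protein, with 1107, 338 and 1364, low on shScr alone (1.57 and, at its other probe, 0.68). Relative to all genes, the medians of the splicing, nuclear pore and chromatin lists were -0.66, -0.48 and -0.596, and with local background -0.35, -0.13 and -0.08.

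Proteasome and nucleolar genes had lower signal in part, and translation factors lay on both sides of 0. Of 38 proteasome genes, 8 (21.1%) were at least 2-fold lower and 0 higher, with a median of -0.199. PSMA3 and PSMA4, alpha subunits of the 20S core, had levels of 2274, 2204 and 885 and of 1184, 1573 and 616 (parental, shScr, shDKK3). PSMC2, an ATPase of the cap, had 1743, 2367 and 1150.0. All 3 were lowest on shDKK3. Of these 38 genes, 3 were higher and 5 lower by 2-fold or more in the deposited values, and the list median was 0.21 there, below that of all genes (0.32). Of 38 ribosome biogenesis genes, 7 (18.4%) were lower and 0 higher. DDX21, a nucleolar RNA helicase, had 1142, 1346 and 462 (-1.82), and NCL, nucleolin, 1123, 1233 and 583 (-1.39), with another probe at -1.78. A further NCL probe, not above the blank spots on the shScr or the shDKK3 array, gave -0.01. DDX21 had the opposite sign with local background (1.79). Of 43 translation initiation genes, 8 (18.6%) were lower and 2 higher, and 21 lay above 0. Of these 43 genes, 11 were higher and 6 lower by 2-fold or more in the deposited values, where higher genes are also the more frequent among all genes. EIF2S2, the beta subunit of eIF2, had 2022, 2478 and 972 (-1.78), and EIF4A2, a helicase of the cap-binding complex, 769, 1564 and 587 (-1.75). EIF2B4, of the exchange factor of eIF2, was higher at 143, 114 and 361 (1.28, and -0.28 with local background). Of 60 cytosolic ribosomal proteins, 2 were higher and 3 lower, near the shares of all genes. Of these 60 genes, 25 were higher and 1 lower by 2-fold or more in the deposited values (shares of all genes 14.8% and 10.8%), with a median of 0.93 against 0.32.

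Vesicle transport, centrosome and autophagy genes also had lower signal. Of 46 golgin and ER-Golgi genes, 8 (17.4%) were at least 2-fold lower and 0 higher, with a median of -0.397. COPB1, a coat subunit of COPI vesicles, had levels of 806, 969.8 and 407 (parental, shScr, shDKK3), and TMED7, a cargo receptor, 247, 229 and 80.0. Both were lowest on shDKK3. Of 29 coiled-coil proteins of the centrosome and cilium, 27 lay below 0, 6 (20.7%, against 4.55% of all genes) were 2-fold lower and 0 higher. Of these 29 genes, 0 were higher and 20 lower by 2-fold or more in the deposited values, with a median of -1.43. AKAP9, a scaffold at the Golgi and centrosome, had 87.5, 168 and 31.5 (-1.63). IFT74, of intraflagellar transport, had 91.5, 137 and 30.1 (-1.41). These genes are long, with a median of 94.4 kb. The list median was -0.66, and -0.58 after removal of the trend with length. Relative to all genes it was -0.69, and -0.09 with local background, where the golgin and ER-Golgi median went from -0.42 to -0.03. Of 33 autophagy genes, 7 (21.2%) were lower and 0 higher. GABARAPL1, a member of the ATG8 family, had 109.6, 482 and 156 (-1.52) and MAP1LC3B, which encodes LC3B, 149.5, 367 and 144 (-1.23). For both, shScr alone was high, whereas ATG12, the ubiquitin-like conjugate of ATG5, had 261, 341 and 95.8 (-1.596) and TAX1BP1, an autophagy receptor, 1377, 1609 and 657 (-1.65), lowest on shDKK3. GABARAPL1 had the opposite sign with local background (0.43).

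**Figure D3:**
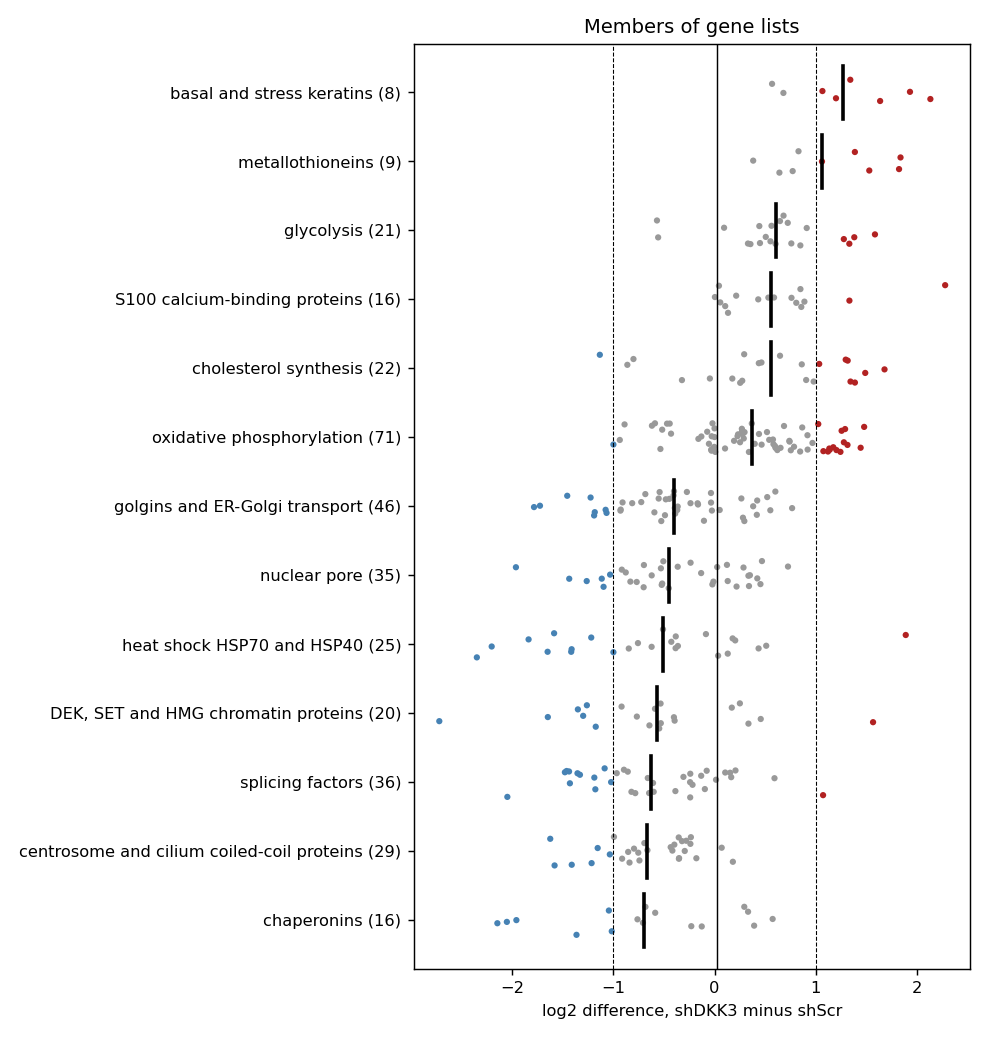
Log2 differences (shDKK3 minus shScr) of the members of the 13 function lists whose median lay at least 0.3 from that of all genes, 1 point per gene, with the number compared after each name. Thick bars are list medians, from -0.70 for chaperonins to 1.27 for basal and stress keratins, the thin solid line is the median of all genes (0.03) and the dashed lines mark 2-fold.

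Cell cycle genes differed in both directions. Of 34 genes of G2/M and mitosis, 7 (20.6%) were at least 2-fold higher and 0 lower, beside 2.99% and 4.55% of all genes. Of these 34 genes, 13 were higher and 0 lower by 2-fold or more in the deposited values (all genes 14.8% and 10.8%). AURKB, the kinase of the chromosomal passenger complex, had levels of 1397, 654 and 3164 (parental, shScr, shDKK3), CCNB2, a mitotic cyclin, 826, 319 and 979, and KIF2C, a microtubule depolymerase, 318, 155 and 478. In each, shScr was lowest, and the list had a median of -0.78 for shScr against parental. The list median of 0.21 exceeded that of all genes, but was -0.20 relative to it with scaling to the 75th percentile, and AURKB had the opposite sign with local background (-0.22). Of 35 G1/S and replication genes, 2 were higher and 6 lower (17.1%), beside 4 and 4 in the deposited values. CCNE2, a cyclin of S-phase entry, had 88.4, 150.4 and 24.8 (-1.65), PCNA, the sliding clamp, 2341, 3656 and 2358 (-1.32, and -0.63 in the deposited values) and RFC3, of the clamp loader, 116, 218 and 65.5 (-1.35). TK1, the thymidine kinase of S phase, was higher at 2094, 1108 and 3952 (1.29). CDK4, the G1 kinase, had 1306, 656 and 2089 and was higher at both probes (1.17 and 1.08), while RB1, the pocket protein it phosphorylates, had 111, 124 and 44.4 (-1.01). Of 16 D cyclin and G1 kinase genes, 1 was higher and 2 (12.5%) lower, with a median of 0.17. The largest difference among them was that of CCND1, cyclin D1 (-1.79, and -0.41 with local background). Replication-dependent histones went both ways, with 4 higher and 4 lower of 27. H2BC13, listed as HIST1H2BL, had 857, 2098 and 1040.2 (-1.46), whereas H1-1, listed as HIST1H1A, had 62.7, 46.2 and 166 (1.27).

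Inflammatory, interferon and antigen presentation genes differed in a few members each. Of 38 NF-kB and inflammatory genes, 5 (13.2%) were at least 2-fold lower and 1 (2.63%) higher, beside 4.55% and 2.99% of all genes. Of these 38 genes, 7 were higher and 5 lower by 2-fold or more in the deposited values (all genes 14.8% and 10.8%). BIRC2, an inhibitor of apoptosis that restrains the alternative NF-kB branch, had levels of 933, 978 and 310.1 (parental, shScr, shDKK3), and PTGS2, cyclooxygenase-2, 59.1, 77.5 and 17.5. Both were lowest on shDKK3, whereas SOD2, the mitochondrial superoxide dismutase, had 897, 226 and 727, lowest on shScr (1.33). Under local background BIRC2 (0.79) and SOD2 (-0.05) had the opposite sign. Of 32 interferon-stimulated genes, 3 (9.38%) were higher and 0 lower, beside 9 and 3 in the deposited values. IFITM1, a membrane restriction factor, had 917, 452 and 2327 (1.83), OAS3, an oligoadenylate synthetase, 261, 99.9 and 318 (1.27, and -0.24 with local background) and IFI6 127, 119 and 312 (1.06). Of 15 genes of MHC class I presentation, 2 were higher and 1 lower. PSMB9, an immunoproteasome subunit, was higher at 979.9, 432 and 1685 (1.49), as was PSME1, of the PA28 activator, by just 2-fold, and B2M, the light chain of class I molecules, lower at 7439, 6411 and 4773 (-1.23). The B2M difference was -0.43 in the deposited values, short of 2-fold, and 0.22 with local background.

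Regulators of apoptosis and the p53 pathway likewise differed in a few members each. Of 19 BCL2 family genes, 3 (15.8%) were higher and 1 (5.26%) lower, beside 2.99% and 4.55% of all genes. Beside BNIP3, the proapoptotic BID had levels of 941, 289.6 and 1104 (parental, shScr, shDKK3), a log2 difference of 1.53, and BIK had 97.5, 58.6 and 191 (1.22). PMAIP1, which encodes NOXA, had 179, 229 and 74.1 (-1.299). BID was high on both parental and shDKK3, and PMAIP1 was lowest on shDKK3. With local background BID was at -1.23 and BIK at 0 to 2 decimals. Of 24 p53 pathway genes, 2 were higher and 2 lower (8.33% each), PMAIP1 among the latter. DDB2, a DNA damage recognition factor, was higher at 467, 248 and 1106 (1.74), as was FDXR, ferredoxin reductase, at 123, 84.2 and 253 (1.19). ZMAT3, an RNA-binding p53 target, was lower at 139, 229 and 65.5 (-1.41).

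Adhesion and matrix lists held a few members past 2-fold in either direction, with list medians near that of all genes. Of 25 integrin and laminin genes, 1 (4%) was higher and 2 (8%) lower by 2-fold or more, beside 6 and 4 in the deposited values. The shares of all genes are 2.99% and 4.55%, and 14.8% and 10.8% in the deposited values. LAMA5, a basement membrane laminin chain, had levels of 869, 298 and 859.9 (parental, shScr, shDKK3), a log2 difference of 1.16, while ITGA2, the collagen-binding alpha-2 subunit, had 388, 449 and 112 (-1.81). LAMA5 was low on shScr alone, with the opposite sign under local background (-0.29), and ITGA2 was low on shDKK3 alone. ITGB1, the beta-1 subunit, was the other lower one at 2397, 1918 and 742 (-1.74). Of 29 matrix proteases and inhibitors, 4 were higher and 4 lower (13.8% each). TIMP1 and TIMP3, inhibitors of metalloproteinases, had 507, 265 and 898 (1.38) and 47.5, 21.4 and 101 (1.204). MMP10, stromelysin-2, had 78.8, 299 and 134 (-1.04), so it was high on shScr. CDH3, P-cadherin, had 614, 273 and 1016 (1.49) and was the 1 higher of 29 epithelial junction genes (3.45%, near the share of all genes). The 1 lower was EPCAM, an epithelial adhesion molecule, at 1927, 1671 and 648 (-1.71 and, at its other probe, -1.05). Of 20 mesenchymal genes, 4 were higher and 1 lower, with a median of 0.11. Beside VIM and LGALS1, the higher ones were ACTA2, smooth muscle actin (1.17, and -0.23 with local background), and FOXC2, a forkhead factor (1.15), and the lower one was FN1, fibronectin, at 204, 306 and 129.5 (-1.11).

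Of 36 growth factors and receptors, 6 (16.7%) were at least 2-fold higher and 0 lower, and 28 lay above 0, with a median of 0.102. Of these 36 genes, 11 were higher and 0 lower by 2-fold or more in the deposited values. The shares of all genes are 2.99% and 4.55%, and 14.8% and 10.8% in the deposited values. Beside FGFBP1, the binding protein IGFBP6 had levels of 232, 128 and 519 (parental, shScr, shDKK3), a log2 difference of 1.58, and VEGFB, a ligand of VEGFR1, 163, 63.0 and 269 (1.55). Both were highest on shDKK3. EGR1, an immediate early transcription factor, had 159, 41.2 and 181 (1.44) and was the only one of 29 ERK feedback and early genes past 2-fold, with a value of -0.01 under local background. Of 15 genes of the EGFR family and its ligands, 0 passed 2-fold, and 11 lay below 0. Of 33 TGF-beta, activin and BMP genes, 2 (6.06%) were higher and 1 (3.03%) lower. ID1 and ID3, which bind and block helix-loop-helix transcription factors, were higher at 160.2, 118 and 330.5 (1.14) and 147, 156 and 580.2 (1.501). INHBA, the beta-A subunit of activin, was lower at 589, 372 and 95.1 (-1.71). Of 27 PI3K-Akt-mTOR genes, 2 (7.41%) were higher and 1 (3.70%) lower. AKT2, a kinase of the AKT family, had 172, 68.1 and 265 (1.46) and EIF4EBP1, the repressor of the cap-binding protein, 376, 249.7 and 728 (1.21), whereas RPS6KB1, the S6 kinase, had 55.4, 108 and 21.6 (-1.36). Among amino acid genes, PHGDH, the first enzyme of serine synthesis, had 1250.3, 572 and 2111 and was higher at both probes (1.39 and 1.29), and SHMT2, the mitochondrial serine hydroxymethyltransferase, had 919, 471 and 1329 (1.07). Of 17 aminoacyl-tRNA synthetase genes, 1 was higher and 3 lower, beside 1 and 2 in the deposited values, and TARS1, for threonine and listed as TARS, had 444, 831 and 221 (-1.93).

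Different probes of a gene were the only repeated measure of a gene in these arrays, and they share the RNA and its labelling. Of 1854 genes with more than 1 detected probe, 68 had 3 or more. The other probe lay on the same side as the leading, brightest probe in 75.8% of 1932 pairs, with a median gap of 0.18 (log2). In the other 468 pairs it did not, and in 3 of these it passed 2-fold. Where the leading probe was at least 2-fold higher, 65 of 74 other probes (87.8%) were on the same side and 21 also passed 2-fold. Where it was at least 2-fold lower, 123 of 127 (96.9%) were on the same side and 57 passed 2-fold. In neither set did another probe pass 2-fold in the opposite direction. Among probes in the brighter part by signal, the shares were 46 of 49 and 107 of 110, and among those in the dimmer part 19 of 25 and 16 of 17, of which 0 passed 2-fold.

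All detected probes passed 2-fold in 21 higher and 55 lower genes. Beside AQP3 (2.76 and 1.77), KRT15, NDUFB2 and PHGDH, the higher genes included PHPT1, a phosphohistidine phosphatase (1.62 and 1.65), and PGM1, the phosphoglucomutase that links glycogen to glycolysis (1.42 and 1.44, while the leading probe was at -0.19 with local background). They also included SLC27A3, a fatty acid transport protein, at 1.47 by both probes, and IAH1, an esterase (1.35 and 1.74). The lower ones included MATR3, a nuclear matrix RNA-binding protein (-1.80 and -1.96), and CSE1L, the exporter of importin alpha (-1.65 and -1.74). SCOC, a Golgi coiled-coil protein (-1.93 and -1.66), was lower in the same way. Wide gaps, named after their values were seen, were those of RPL15, a ribosomal protein (-0.60 and 1.699), H2AZ2, a histone variant listed as H2AFV (0.57 and 2.20), and CALCA, which encodes calcitonin and CGRP by alternative splicing (1.29 and -0.44). Pseudogene copies of RPL15 and close relatives of H2AZ2 may share signal with their probes.

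**Figure D4:**
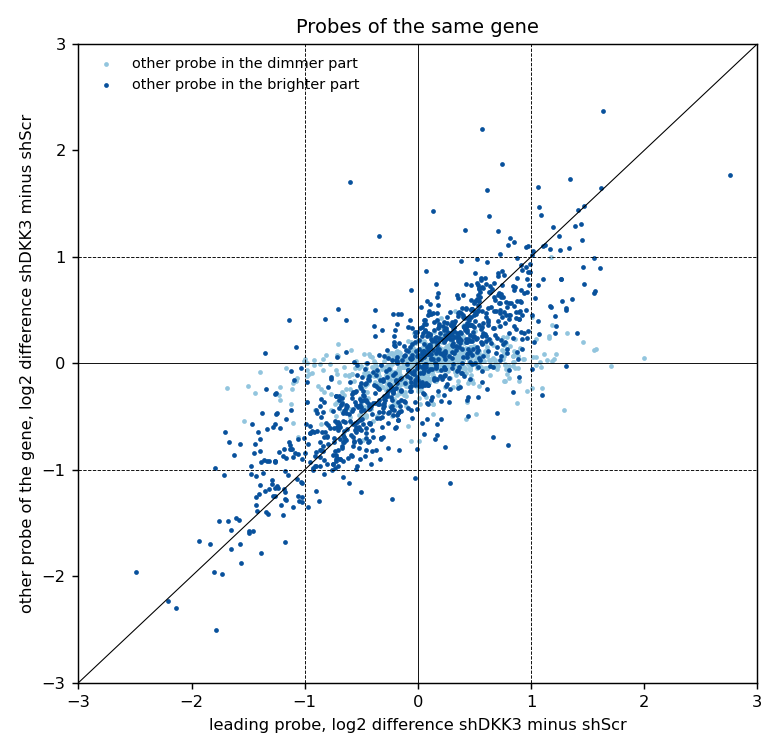
Log2 difference (shDKK3 minus shScr) of the leading probe of a gene (x) and of each other detected probe of that gene (y), for 1932 pairs. The solid line marks equal values and the dashed lines 2-fold. Dark points, whose other probe lies in the brighter part by signal, follow the line, and light points, from the dimmer part, stay close to 0 on the y axis.

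Genes above the blank spots on 1 of the arrays only have a bound in place of a fold. There were 485 such genes on the shDKK3 array and 328 on the shScr array, of 15106 compared, and 1 on each side reached 2-fold. The limit of detection was 49.2 on the shDKK3 array and 59.1 on the shScr array, and its part in these counts was not tested. IGFL1, an insulin-like growth factor family member of skin, was at least 2.38-fold higher on shDKK3, with deposited levels of 2, 1.20 and 54.5 (parental, shScr, shDKK3). GULP1, an engulfment adaptor, was at least 2.13-fold higher on shScr, at 15.2, 43.8 and 1.30. TGM1, the transglutaminase that crosslinks the cornified envelope, was at least 1.501-fold higher on shDKK3, and MAEL, known from piRNA biology in germ cells, at least 1.52-fold higher on shScr.

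Called genes differed in genomic length. The 15028 genes with a length were put in 10 bins of rising length. In the shortest bin, with a median of 2.13 kb, 6.92% were at least 2-fold higher and 1.26% lower. In bin 7, with a median of 44.7 kb, these shares were 2.40% and 6.85%, and in the longest, with a median of 239.6 kb, 0.665% and 2.86%. The median difference was 0.09 in the shortest bin and -0.04 in bin 9 (log2), while it stayed between -0.01 and 0.01 for shScr against parental. With the trend removed, 379 genes were higher and 690 lower. What underlies this trend was not tested. The keratins, S100 genes and respiratory subunits above are short and the centrosome genes long, and their medians without the trend were 1.16, 0.44, 0.26 and -0.58.

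**Figure D5:**
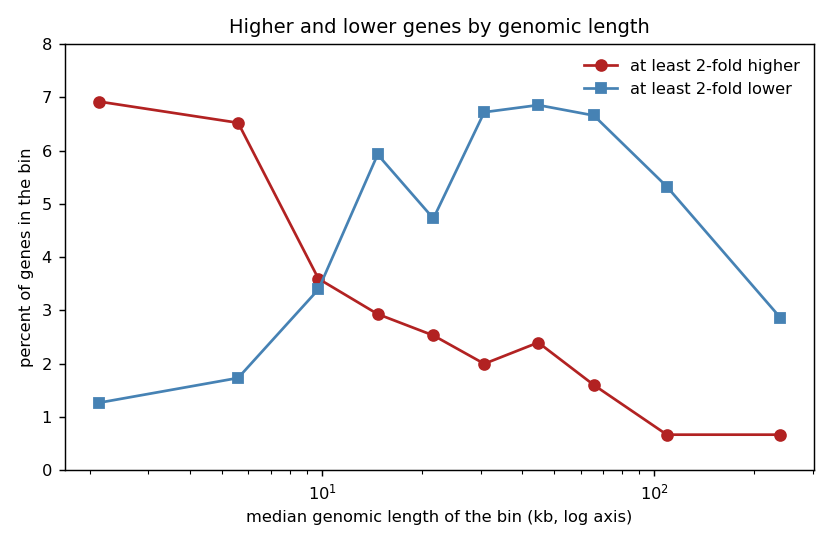
Percent of genes at least 2-fold higher (circles) or lower (squares) on shDKK3 relative to shScr, in 10 bins of genomic length, plotted at the median length of each bin (log axis, kb), with 1502 or 1503 genes each. The share of higher genes is 6.92% in the shortest bin and 0.665% in the longest, and the share of lower genes is highest, at 6.85%, in bin 7.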

How the data were processed

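RNA of 3 HSC-3 cultures was made into Cy5-coupled amino allyl RNA and hybridised to 1-colour arrays, per the labels' protocols. Groups follow the shRNA labels, with 1 array per condition. The deposited scanner files hold intensity values. Per the file headers, the column used is a spot's median at 635 nm, which the authors joined from scans at 3 gains. The authors' deposited table holds intensity on a linear scale. Set against the scanner values, each of its columns is a straight line of them (slope 1.41 for parental, 1.83 for shScr and 1.04 for shDKK3) with a median of 25. No centring per gene was found and the direction is the same. The array design and scanner software are not given in the sources used here.

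Spot medians were corrected with normexp (limma 3.58.1, R 4.3.3, offset 50, all spots), then quantile normalised over all 3 arrays and put on the log2 scale. A probe was detected above the mean plus 2 SD of 2680 blank spots, at limits of 54.3, 59.1 and 49.2, which held for 19184, 19592 and 19881 of 24451 probes. The median probe stood 25.0, 28.4 and 18.2 units above the blanks. The number of arrays limits the precision. Another 9 probes, marked as not good, were left out. Platform annotation named 1 gene for 20228 probes, several for 0 and no gene for 4223. Of 17614 symbols, 14990 were current in the RefSeq table of GRCh38.p14, 2538 were a single older symbol and 86 did not match. Probes were joined by current symbol, and the brightest probe stands for the gene. Promoters came from RefSeq (GRCh38.p14), with 250 bases before the start.

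A gene was called at a log2 difference of at least 1 in size, with no p-value. Members and lists were chosen with earlier results of these data known. The text names DKK3, then 14 genes each way, ranked by the smaller of their normalised and deposited differences, among genes detected on both arrays, past 2-fold in both and with no probe on the opposite side. Per list it names up to 4 members each way past 2-fold, and it names up to 5 genes each way with a bound and up to 8 each way whose probes all pass 2-fold. Loci without a gene name, 81 of those called, and Y-linked genes are counted but not named. The scripts were tested on simulated data. Alternatives were another background correction, offset, normalisation, filter, threshold or choice of probe, the authors' deposited values, and removal of the trend with gene length.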

Additional observations from a re-analysis of the deposited data

How the results depend on the processing

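No paired analysis was possible because each condition was measured on 1 array. The 451 higher and 687 lower genes became 1416 and 2152 with plain subtraction of the blank mean, 707 and 1171 with an offset of 16, and 2192 and 1604 in the authors' deposited values. They became 224 and 1258 with scaling to the median, 1447 and 1747 at 1.5-fold, and 57 and 111 at 3-fold. When local background was taken from the second deposited column, the lower count was 414. Lower genes made up 60.4% of those called, but 84.9% with scaling to the median, 71.0% after cyclic loess, 64.5% without the length trend, 53.9% with scaling to the 75th percentile, 52.7% with local background and 42.3% in the deposited values. The all-gene median was 0.36 with the 75th percentile and 0.12 with blank subtraction. DKK3 was at -0.80 with scaling to the median and 0.18 with local background. Of 1138 called genes, 0 changed side in 12 of 13 settings, but several of the 12 could not have turned a called gene. Plain blank subtraction, the other offset, no background correction and quantile normalisation over the compared arrays keep the order of spots within an array. The changed filters reuse the same values. With local background, a column correlated with its spots at r of 0.891 to 0.935, 188 of 1137 called genes did change side. Of the 28 genes described first, FGFBP1 (-1.26) and COPS2 (0.46) reversed there, as did 41 of 268 called list members, given beside those named. Others of the 28, such as S100A8 (0.10), FASN (0.13) and SF3B1 (-0.09), fell below 2-fold there. Over all 13 settings, 353 of the 364 values of the 28 genes passed 2-fold in size. The 13 lists whose median lay at least 0.3 from that of all genes kept their sign relative to it in all 13 settings, but with local background 11 of them shrank by over 1.5 times, among them HSP70 and HSP40 (from -0.54 to -0.02), golgins (-0.42 to -0.03) and cholesterol synthesis (0.53 to 0.07). Dim genes near the blanks have compressed folds, and 1 array per condition leaves the spread between cultures unmeasured.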
